A study of Mus musculus with 6 samples.

Results

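The genes described here are 10 adhesion and matrix genes tied to the spread of melanoma, out of 54838 genes counted. They encode the cell surface receptors Mcam, Alcam, L1cam, Cadm1, Bcam, Cdh2 and Cd44 and the secreted proteins Spp1 (osteopontin), Sparc and Fn1 (fibronectin). Each was found by its symbol in the count files, and all 10 were among the 13601 genes that passed the filter on low counts, with at least 83 reads in every library. The list was drawn up with the result of the GSK126 comparison known, so the changes of these 10 genes are given as a description and not as a test.

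RNA was sequenced from B16F10 cells, a pigmented melanoma line of the mouse kept in culture, in 6 libraries. Of these, 3 came from cells given the vehicle DMSO and 3 from cells given GSK126 at 10 µM, an inhibitor of EZH2, the methyltransferase of Polycomb repressive complex PRC2. All samples are of this 1 line. How long the cells were treated is unknown here, and no label says that the replicates were separate cultures, so the spread between them may be technical. Library totals ran from 13594939 to 14713373 counts. GSK126 replicate 3 stood apart from the other GSK126 libraries along principal component 2, which holds 18.8% of the variance. All 10 melanocyte lineage markers that were looked up were expressed, with summed levels of 27330 to 28403 CPM (read counts scaled to a common library size) under DMSO and 29590 to 30766 CPM under GSK126. Single lineage markers differed in direction, with log2 fold changes (GSK126 over DMSO) from -0.28 to 0.60 and a median of 0.14. Most markers of other cell types were near 0, but not all. The fibroblast gene Col1a2 had 281 to 312 reads per DMSO library and 221 to 280 per GSK126 library. Postn had 64 to 81 and 37 to 74 reads, and the immune gene Cd68 had 26 to 47 and 45 to 47. Pdgfra had at most 28 reads in a library and Cdh1 at most 22. The endothelial genes Cdh5, Kdr, Tek, Emcn and Cldn5, the immune genes Adgre1, Cd3e and Itgam and the epithelial keratin gene Krt5 had 0 reads in every library. In bulk RNA, fewer cells of a type and less RNA per cell cannot be told apart.

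Adhesion molecules hold a cell to its neighbours and to the matrix, and their loss or gain accompanies the passage of melanoma cells from the epidermis into the dermis and the vessels. MCAM, ALCAM and BCAM are related receptors of the immunoglobulin superfamily, N-cadherin (Cdh2) binds cadherins on other cells, and CD44 binds the matrix sugar hyaluronan. Osteopontin, SPARC and fibronectin are secreted, and osteopontin and fibronectin are held by integrins through an arginine-glycine-aspartate motif. PRC2 represses genes by methylating histone H3, and in mammals it is recruited mainly to regions rich in CpG dinucleotides.

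Mcam and Spp1 moved farthest of the 10 genes and in opposite directions, so the DNA before their start sites is shown for reference. RefSeq promoter sequences (GRCm38.p6) were at hand for 7 of the 10 genes, namely Mcam, Spp1, Cd44, Bcam, Sparc, Alcam and L1cam; Cdh2, Cadm1 and Fn1 had none. Capitals mark a match to a searched motif on either strand, and lower case is all other bases. Coding-gene exons were left out, which leaves 61 bases for Mcam, chr9:44134408-44134468 on the plus strand, and 250 bases for Spp1, chr5:104434861-104435110 on the plus strand, before the first of its 2 RefSeq starts.
Mcam: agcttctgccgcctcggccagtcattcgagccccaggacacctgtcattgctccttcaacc
Spp1: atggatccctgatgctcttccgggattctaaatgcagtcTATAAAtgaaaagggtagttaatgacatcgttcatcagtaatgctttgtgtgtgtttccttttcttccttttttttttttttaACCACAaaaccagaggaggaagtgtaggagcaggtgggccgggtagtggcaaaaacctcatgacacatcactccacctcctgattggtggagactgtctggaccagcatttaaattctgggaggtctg

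The 250 bases before each RefSeq start differed in base composition. The Mcam window had a GC content of 73.6% and 25 CpG dinucleotides, with an observed over expected CpG ratio of 0.739, above 76.2% of the 32851 promoter windows in the table. The Spp1 window had a GC content of 43.6% and 3 CpG dinucleotides, and its ratio of 0.255 was above 37.3% of all windows. Before the other RefSeq start of Spp1 the ratio was 0.383, above 50.7% of all windows. Alcam (0.742) and Bcam (0.769) had ratios near that of Mcam, Cd44 had 0.257 and Sparc 0.220, and the windows of the 2 L1cam starts had 0.666 and 0.481.

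Searched motifs were the E-box CACGTG, the AP-1 element TGANTCA, the GC box GGGCGG, the RUNX core TGTGGT and TATAAA, on both strands; none of these letter strings contains another. Mcam held 5 GC boxes between 112 and 33 bases before its RefSeq start. All 5 lie inside the first exon of longer GENCODE transcripts and so outside the bases printed above. A GC box occurs in 32.7% of all windows of this length. Spp1 held no GC box, but 1 TATAAA (positions -211 to -206, in 12.4% of all windows) and 1 RUNX core on the minus strand (positions -128 to -123, in 14.0%), both in capitals above. No E-box or AP-1 element was in the windows of the 7 genes; these occur in 6.02% and 6.75% of all windows. A match describes letters in a window and says nothing of binding.

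Of the 10 genes, 2 were called higher under GSK126 (Spp1 and Cd44), 3 lower (Mcam, Sparc and Cdh2) and 5 were not called. A called gene passed the quasi-likelihood test of edgeR at a threshold of 0.05 after Benjamini-Hochberg adjustment over all tested genes. Over all tested genes the same rule called 11.1%, with 5.87% higher and 5.18% lower. The libraries of both groups did not overlap for 7 of the 10 genes, 4 with GSK126 above and 3 with GSK126 below, against 34.4% of all tested genes. These shares are given as background, and nothing is read from them, because the list was chosen on this contrast. The median log2 fold change of the 10 genes was 0.09, beside -0.00048 over all tested genes, and 7 of the 10 lay within 0.25 of 0.

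**Figure D1:**
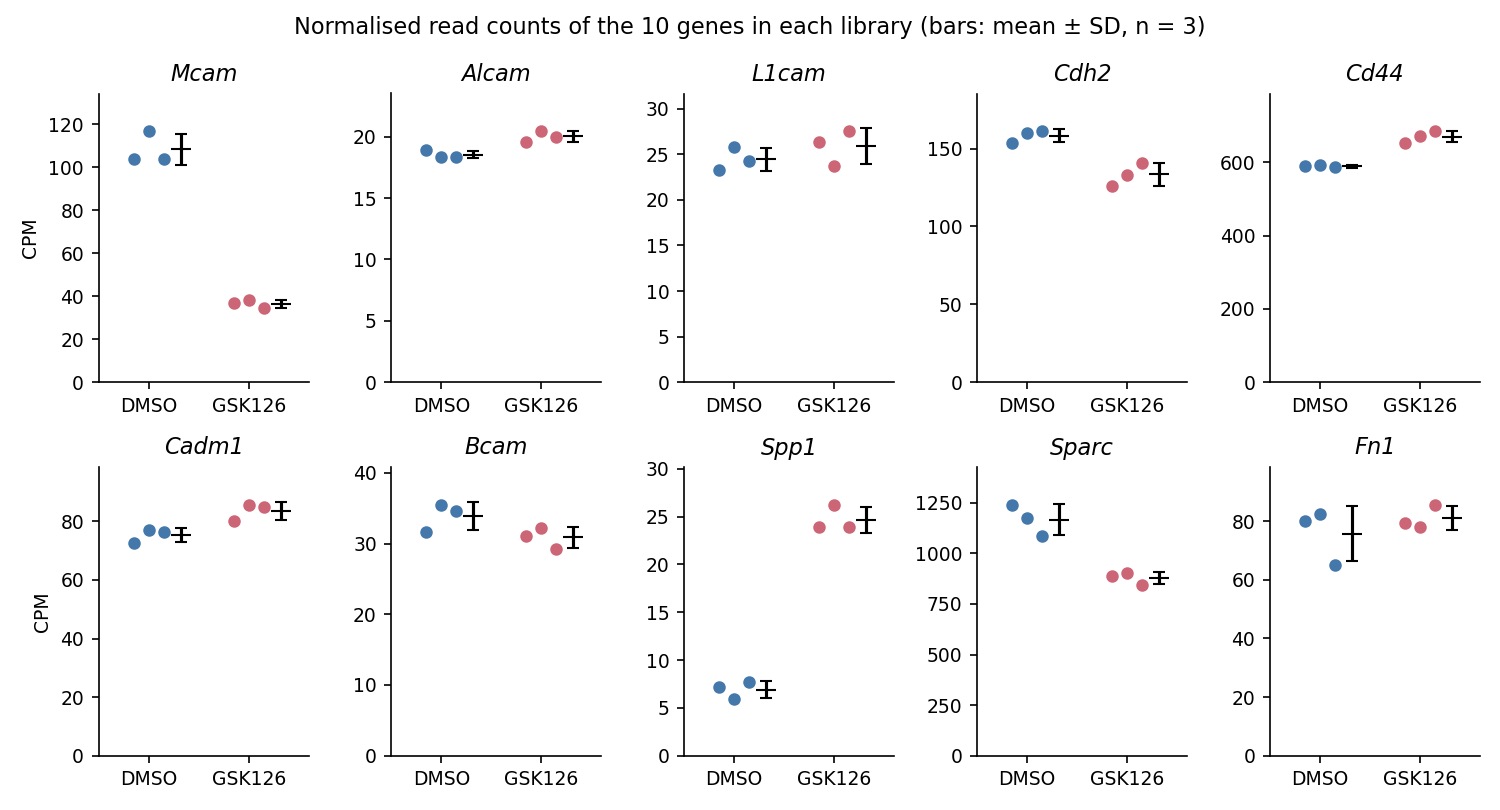
Normalised read counts (CPM, y axis from 0) of the 10 genes in the 3 DMSO and the 3 GSK126 libraries, 1 point per library, with mean ± SD beside each group. Mcam is at 104 to 117 CPM under DMSO and 34.5 to 38.1 CPM under GSK126, Spp1 moves the other way, and the points of L1cam, Bcam and Fn1 overlap between the groups.

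Mcam, the melanoma cell adhesion molecule also known as MUC18, was the receptor that changed most. It lies on GRCm38 chromosome 9, 44134469 to 44142727, plus strand. Its level was 104, 117 and 104 CPM in DMSO replicates 1 to 3 and 36.9, 38.1 and 34.5 CPM in GSK126 replicates 1 to 3. The groups lay far apart, with a lowest DMSO value of 104 CPM and a highest GSK126 value of 38.1 CPM. The means were 108 ± 7.37 and 36.5 ± 1.84 CPM (SD, n = 3), a fall to 0.338 of the DMSO level (log2 fold change -1.57, SE 0.07, 95% interval -1.74 to -1.40). In absolute size this change ranked 71st of the 13601 tested genes. It ran from -1.60 to -1.51 over the 13 alternative analyses and passed in each. An antisense gene, Gm10687, shares 17 bp of exons with Mcam and had 0.662% as many reads.

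The related receptor genes did not follow Mcam. Alcam lies on the minus strand of chromosome 16 (52248996 to 52454074) and Bcam on that of chromosome 7 (19756131 to 19771016). Alcam, whose product binds itself and CD6, stood at 18.9, 18.4 and 18.4 CPM with DMSO and 19.6, 20.5 and 20.01 CPM with GSK126. Its groups did not overlap, but the difference was small and not called (log2 fold change 0.11, SE 0.07, 95% interval -0.06 to 0.28). Its spread between replicates, a coefficient of variation of 1.64% under DMSO, was below the 6.27% that counting alone gives at this depth. Bcam, a laminin receptor that carries the Lutheran blood group antigens, was at 31.6, 35.5 and 34.6 CPM with DMSO and 31.1, 32.2 and 29.2 CPM with GSK126. Here the groups overlapped, and the log2 fold change of -0.14 (SE 0.08, 95% interval -0.32 to 0.05) was not called. Summed over Mcam, Alcam and Bcam, the level went from 154 to 171 CPM in the DMSO libraries to 83.7 to 90.8 CPM in the GSK126 libraries, and Mcam carried that difference.

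L1cam and Cadm1, more distant members of the immunoglobulin superfamily, were not called either. L1cam is on the minus strand of chromosome X (73853778 to 73896105) and Cadm1 on the plus strand of chromosome 9 (47530173 to 47857637). L1cam, a neural adhesion molecule, was at 23.3, 25.8 and 24.3 CPM with DMSO and 26.4, 23.7 and 27.5 CPM with GSK126. The groups overlapped, with GSK126 replicate 2 among the DMSO values (log2 fold change 0.08, SE 0.09, 95% interval -0.12 to 0.28). Cadm1, a homophilic receptor of epithelia and synapses, was at 72.7, 77.2 and 76.2 CPM with DMSO and 80.1, 85.7 and 84.9 CPM with GSK126. Every GSK126 library was above every DMSO library, yet the change was not called over all genes (log2 fold change 0.15, SE 0.05). Its 95% interval before any adjustment, 0.02 to 0.28, excludes 0. L1cam shares 100 bp of exons with Arhgap4, which had 2.30% as many reads.

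Cdh2 and Cd44 changed by small amounts, in opposite directions. Both are on minus strands, Cdh2 on chromosome 18 (16588877 to 16809246) and Cd44 on chromosome 2 (102811141 to 102901665). Cdh2 encodes N-cadherin, which melanoma cells commonly carry in place of E-cadherin. It stood at 154, 160 and 161 CPM with DMSO and 126, 133 and 141 CPM with GSK126, a decrease by 15.7% (log2 fold change -0.25, SE 0.05). No library of one group entered the range of the other. The hyaluronan and osteopontin receptor gene Cd44 was at 589, 594 and 586 CPM with DMSO and 654, 671 and 685 CPM with GSK126, an increase of 13.7% (log2 fold change 0.18, SE 0.04). Its DMSO libraries were the tightest of all 10 genes, with a coefficient of variation of 0.685%, below the 1.11% that counting alone gives at this depth. Both calls ended in several alternatives. With the replicate number as a block, both ended (edgeR, adjusted p = 0.0751 for Cdh2 and 0.0944 for Cd44). That of Cdh2 ended with no filter on low counts beyond 1 read (edgeR, adjusted p = 0.0616) and without DMSO replicate 1, 2 or 3 or GSK126 replicate 1 or 2, with log2 fold changes from -0.29 to -0.21 over the single omissions. That of Cd44 ended without DMSO replicate 1, 2 or 3 or GSK126 replicate 2, at 0.17 to 0.20 over the single omissions. The Cdh2 call held without GSK126 replicate 3, and the Cd44 call without GSK126 replicate 1 or 3. Gene counts sum all transcripts, and the spliced forms of Cd44, for which GENCODE M21 gives 9 transcripts, cannot be told apart here.

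**Figure D2:**
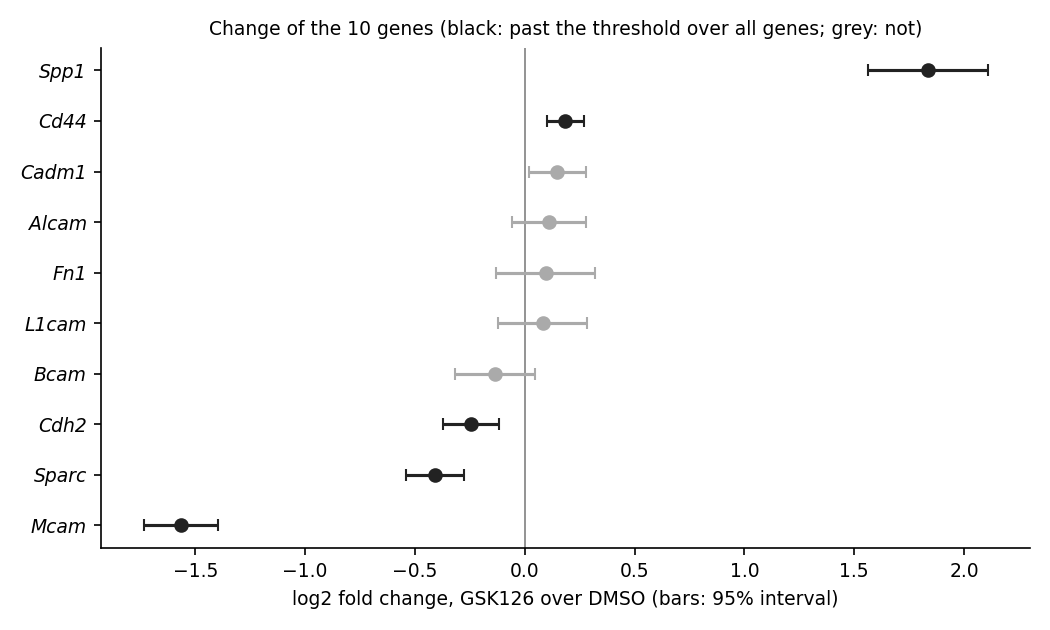
Log2 fold change of each of the 10 genes, GSK126 over DMSO (x axis), with 95% intervals from the edgeR fit before adjustment; black points passed the threshold over all genes and grey points did not. Spp1 (1.84) and Mcam (-1.57) lie far from 0, and the other 8 lie between -0.41 and 0.18.

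Spp1, the gene of osteopontin, a secreted phosphoprotein that binds integrins and CD44, rose most. It lies on GRCm38 chromosome 5, 104435118 to 104441050, plus strand. Its reads numbered 97, 83 and 104 in DMSO replicates 1 to 3 and 342, 386 and 343 in GSK126 replicates 1 to 3. On the CPM scale these are 7.13, 5.90 and 7.71 against 23.9, 26.2 and 23.9, so the lowest GSK126 library was well above the highest DMSO library. The means of 6.91 ± 0.920 and 24.7 ± 1.35 CPM (SD, n = 3) give a 3.57-fold rise (log2 fold change 1.84, SE 0.12, 95% interval 1.56 to 2.11). That change ranked 42nd in absolute size among the tested genes. It passed in all 13 alternatives, at log2 fold changes of 1.73 to 1.92. At this depth, counting alone gives a coefficient of variation of 10.3% there, and 13.3% was measured.

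Osteopontin is also a macrophage product, so immune markers are given beside it. Of 8 such genes, Cd68 was the only one with enough reads to test, at 26 to 47 reads per DMSO library and 45 to 47 per GSK126 library. Summed over the 8 genes, the immune level was 2.13 to 3.41 CPM with DMSO and 3.26 to 4.58 CPM with GSK126, and these ranges overlap. Adgre1, Cd3e and Itgam, which define macrophages, T cells and myeloid cells, were at 0 reads in all libraries, and Ptprc had at most 14 reads in a GSK126 library. The part of the immune genes in the rise of Spp1 was not tested. Gm42793, which shares 309 bp of exons with Spp1, had 0.738% as many reads.

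Sparc, a collagen-binding matricellular protein gene, was the most abundant of the 10 and fell. It lies on the minus strand of chromosome 11 (55394500 to 55423183). It stood at 1241, 1175 and 1086 CPM with DMSO and 889, 902 and 845 CPM with GSK126. All GSK126 libraries were below all DMSO libraries (log2 fold change -0.41, SE 0.06, 95% interval -0.54 to -0.28), a decrease by 24.7%. The call held in all 13 alternatives, with log2 fold changes from -0.46 to -0.36. Fibroblasts also make Sparc, and a list of 8 fibroblast markers was at 27.9 to 32.2 CPM in sum with DMSO and 19.8 to 26.6 CPM with GSK126. Most of that sum was Col1a2, at 221 to 312 reads per library. Postn had 64 to 81 reads per DMSO library and 37 to 74 per GSK126 library. Pdgfra leaned the other way, with 8 to 15 reads per DMSO library and 13 to 28 per GSK126 library. Col1a1 had at most 14 reads in a library, and Dcn and Lum at most 8. The part of these genes in the fall of Sparc was not tested.

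Fn1, which encodes the matrix glycoprotein fibronectin, showed no called difference. It lies on the minus strand of chromosome 1 (71585520 to 71653200). Its level was 79.97, 82.4 and 65.0 CPM with DMSO and 79.4, 77.8 and 85.6 CPM with GSK126. DMSO replicate 3 lay below the other 5 libraries, which covered 77.8 to 85.6 CPM together. The log2 fold change was 0.10 (SE 0.10, 95% interval -0.13 to 0.32) with all libraries and -0.0051 without DMSO replicate 3. As Fn1 has 17 transcripts in GENCODE M21, changes in its spliced forms would not be seen in these counts.

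Levels of different genes can be set side by side only per length, and for this the deposited FPKM values were used (fragments per kilobase of transcript, scaled to the library total). With DMSO the order was Sparc (223 ± 15.7), Cd44 (47.0 ± 0.471), Mcam (19.4 ± 1.35), Cdh2 (16.4 ± 0.375), Bcam (8.97 ± 0.522), Cadm1 (4.55 ± 0.134), Fn1 (4.18 ± 0.536), Alcam (2.11 ± 0.0410), L1cam (2.003 ± 0.101) and Spp1 (1.28 ± 0.167 FPKM, all SD, n = 3). Within that order, Cadm1 and Fn1 overlapped in their libraries, as did Alcam and L1cam, and all other neighbours were separate. With GSK126, Mcam went from the third place to the fifth, at 6.56 ± 0.351 FPKM below Cdh2 (13.8 ± 0.709) and Bcam (8.19 ± 0.428). Spp1 went from the last place to the seventh, at 4.59 ± 0.252 FPKM. There its libraries overlapped those of Cadm1 (5.05 ± 0.165) and Fn1 (4.48 ± 0.211).

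**Figure D3:**
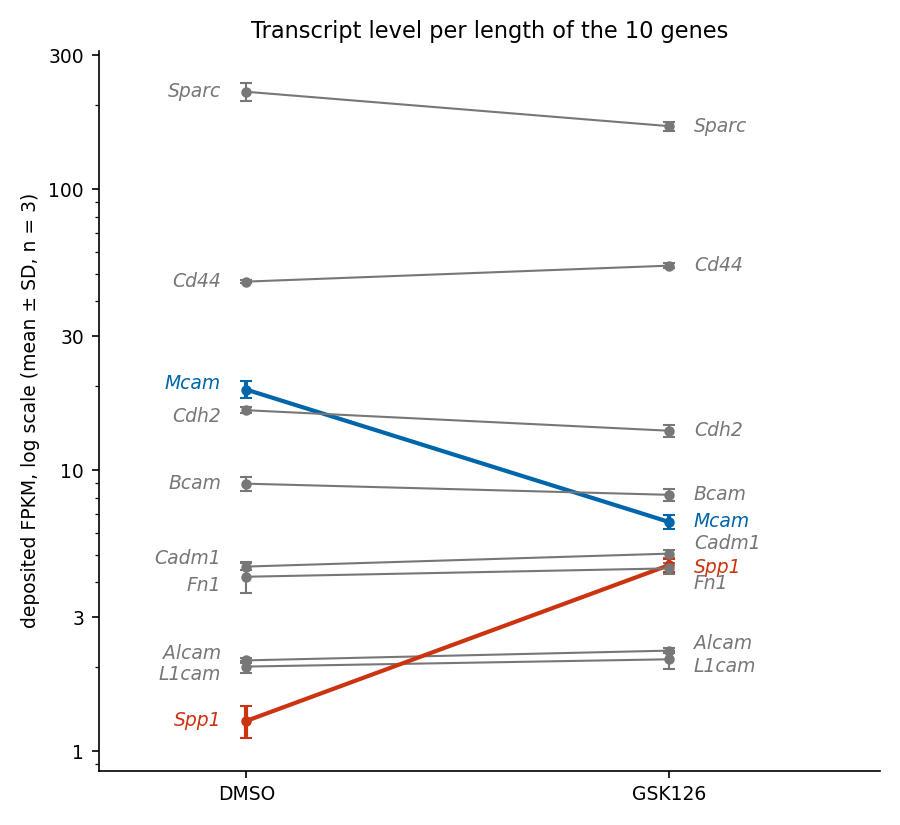
Deposited FPKM of the 10 genes (y axis, log scale; mean ± SD, n = 3) under DMSO and GSK126, with a line joining the 2 means of a gene. The lines of Mcam (blue) and Spp1 (red) cross those of other genes, while Sparc and Cd44 keep the first and second place.

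Per length, Mcam transcripts exceeded Spp1 transcripts 14.1, 19.1 and 13.0 times in DMSO replicates 1 to 3. In the GSK126 libraries the same ratio of FPKM values was 1.49, 1.40 and 1.39. Mcam thus remained the higher of the pair in every library, by a much smaller margin with GSK126. Together the 10 genes took 0.215% to 0.232% of all counts in the DMSO libraries and 0.197% to 0.201% in the GSK126 libraries. Sparc alone made up 50.2% to 53.5% of those member counts with DMSO and 42.7% to 45.2% with GSK126.

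Profiles nearest to those of Mcam and Spp1 were sought among 9918 other protein-coding genes whose mean was 5 CPM or more. The measure was the root mean square difference of log2 CPM over the 6 libraries after each gene was centred on its own mean. Nearest to Mcam were Slc7a11, the cystine importer (0.0802), Etv5, an ETS transcription factor gene (0.172), and Ttpal (0.203). Nearest to Spp1 were Slc16a3, the lactate exporter MCT4 (0.0749), Loxl2, a lysyl oxidase of collagen (0.109), and Bnip3, a mitophagy receptor (0.147). The root mean square of the centred profile itself was 0.784 for Mcam and 0.919 for Spp1. With 2 groups of 3 libraries, such nearness mostly reflects a like difference between the groups.

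**Figure D4:**
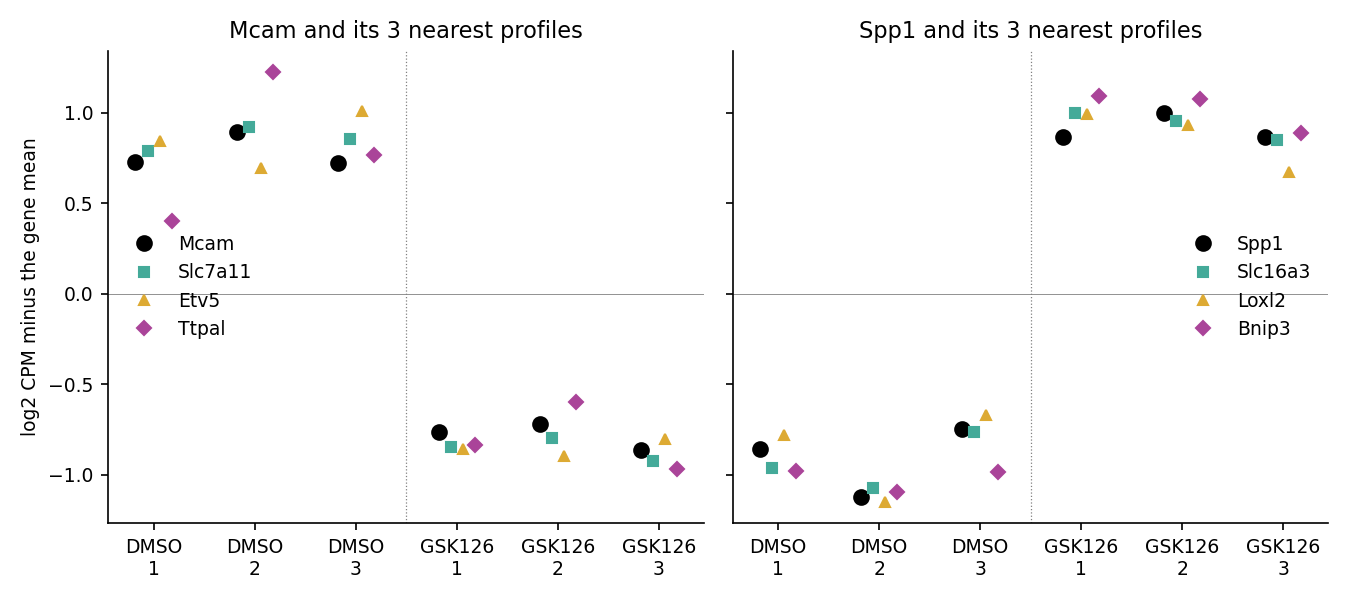
Log2 CPM minus the gene mean (y axis) in the 6 libraries (x axis) for Mcam (left) and Spp1 (right), each with its 3 nearest profiles; points of 1 library are set side by side. Slc7a11 and Slc16a3 lie closest to Mcam and Spp1, with root mean square differences of 0.0802 and 0.0749.

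Partners of the 10 genes were looked up in 7 lists drawn up by function, with 148 entries in all. Of these, 113 had enough reads to test, and 13 were higher with GSK126, 13 lower and 87 not called, which is 23.0% called beside 11.1% over all genes. The lists describe these samples and were not tested as sets. They were chosen with earlier results of these data known, so nothing is read from the called share. Integrins hold osteopontin and fibronectin. Of 16 tested subunits, 4 rose, 1 fell and 11 were not called (median log2 fold change -0.01). Over all tested genes, 5.87% were called higher and 5.18% lower. Itgb3, the beta chain of the osteopontin receptor on melanoma cells, was at 31.1, 25.2 and 34.3 CPM with DMSO and 58.6, 55.5 and 61.8 CPM with GSK126. It rose 1.94-fold (log2 fold change 0.96, SE 0.12; edgeR, adjusted p = 0.00418). Itga9, whose chain pairs with beta 1 to bind osteopontin and tenascin, rose from 83.5 ± 1.10 to 108 ± 3.37 CPM (SD, n = 3), a log2 change of 0.37 (SE 0.05; edgeR, adjusted p = 0.00511). Both calls held with any single library left out.

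The other called integrins were less secure. Itga3 rose from a low level of 2.48 ± 0.765 to 4.97 ± 0.806 CPM (SD, n = 3), a log2 change of 1.003 (SE 0.25; edgeR, adjusted p = 0.0456), and its call ended whichever of the 6 libraries was omitted, at adjusted p = 0.0570 to 0.127. Itga5, the alpha chain of the fibronectin receptor, had a log2 fold change of 0.25 (SE 0.05), and Itgb1, the most shared beta chain, one of -0.19 (SE 0.04). Those calls ended with any library but GSK126 replicate 3 left out, the highest edgeR adjusted p being 0.0971 and 0.0898. Itga4 was lower without passing the threshold (log2 fold change -0.39, SE 0.12; edgeR, adjusted p = 0.0760), though it passed without GSK126 replicate 3 (-0.52, adjusted p = 0.0181). Itgav, the alpha chain that pairs with beta 3, showed no called difference and an uneven spread, described in the closing part.

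**Figure D5:**
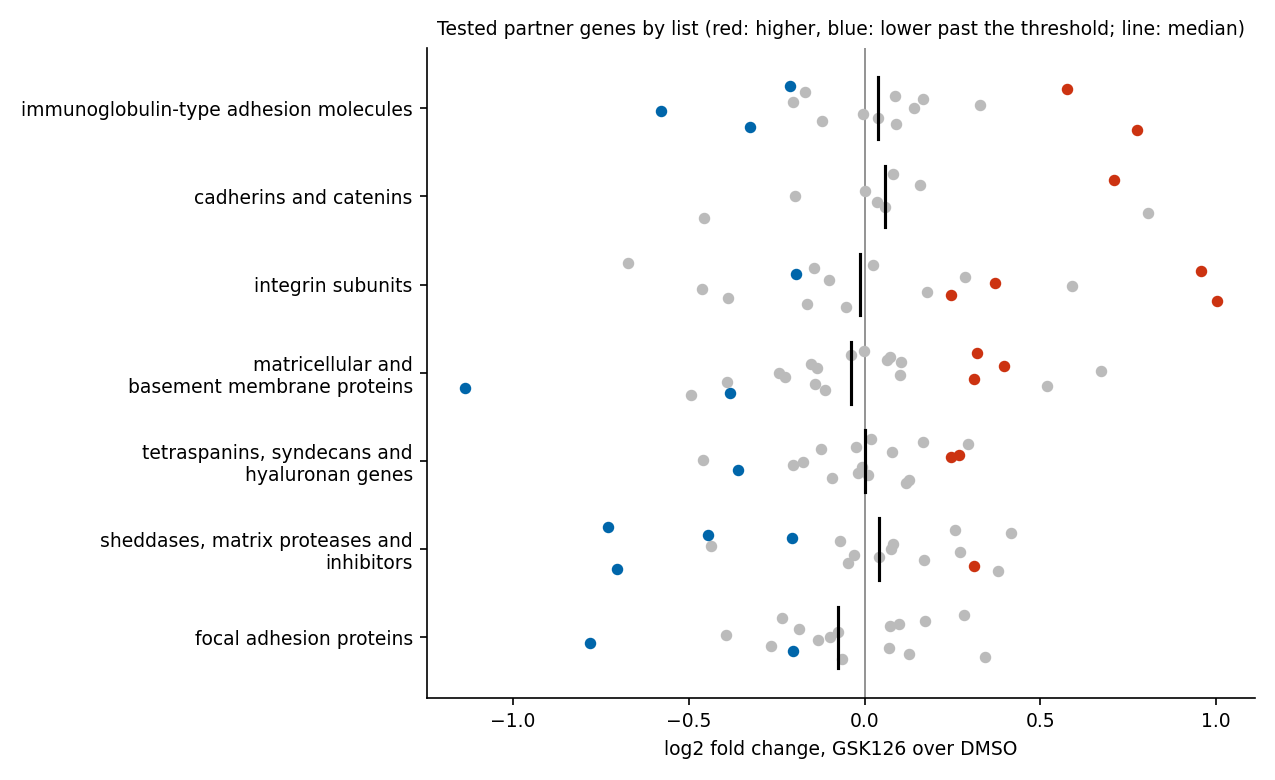
Log2 fold change, GSK126 over DMSO (x axis), of the 113 tested partner genes in 7 lists; red points passed the threshold as higher, blue as lower, grey did not pass, and black lines are list medians. List medians lie between -0.08 and 0.06, with called genes on both sides of 0 in 5 of the 7 lists.

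Immunoglobulin-type adhesion molecules outside the 10 genes split in direction. Of 15 tested, Ncam1 and Ceacam1 rose, Nfasc, Nectin2 and Mpzl1 fell and 10 were not called (median log2 fold change 0.04). The called share was 33.3%, beside 11.1% over all tested genes, and nothing is read from it. Nfasc, a neural adhesion molecule, was at 58.9, 58.2 and 66.9 CPM with DMSO and 39.4, 42.8 and 40.9 CPM with GSK126. Its groups were separate (log2 fold change -0.58, SE 0.08, edgeR adjusted p = 0.00575). Nectin2, which binds nectins and immune receptors, had a log2 fold change of -0.33 (SE 0.05; edgeR, adjusted p = 0.0123). These calls held with any 1 library left out. Ncam1, the neural cell adhesion molecule, rose from 16.5 ± 2.95 to 28.3 ± 5.04 CPM (SD, n = 3), a log2 change of 0.78 (SE 0.17), but its call ended without DMSO replicate 2 or 3 or GSK126 replicate 2 or 3 (highest edgeR adjusted p = 0.102). Ceacam1 (0.58, SE 0.11) lost its call with each of the 6 libraries left out, and Mpzl1 (-0.21, SE 0.04) without DMSO replicate 1, 2 or 3 or GSK126 replicate 1, the highest edgeR adjusted p being 0.0823 and 0.0981.

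Among cadherins and catenins, the partners of N-cadherin, 1 of 9 tested genes was called. Pkp2, a desmosomal plakophilin, rose from 8.24 ± 0.539 to 13.5 ± 1.01 CPM (SD, n = 3), a log2 change of 0.71 (SE 0.11; edgeR, adjusted p = 0.00860), and its call held with each library left out in turn. With all 6 libraries, 0 of the 9 were called lower by edgeR or limma-voom, and 0 of the 8 that DESeq2 tested. By edgeR, 0 were lower at an unadjusted p under 0.05. The called share of 11.1% is that of all tested genes, of which 5.18% were called lower, so nothing is read from these counts. Ctnnb1, the beta-catenin gene, named after its values were seen, was at 797, 721 and 711 CPM with DMSO and 766, 586 and 591 CPM with GSK126. GSK126 replicate 1 lay among the DMSO values, and the log2 fold change of -0.20 (SE 0.11; edgeR, adjusted p = 0.282) became -0.34 without that library, where it was called (edgeR, adjusted p = 0.0376). Cdh1, the gene of E-cadherin, had 4 to 22 reads in a library.

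Matricellular and basement membrane genes, the group to which Sparc belongs, moved both ways. Of 21 tested, 3 rose, 2 fell and 16 were not called (median log2 fold change -0.04). The called share was 23.8%, beside 11.1% over all tested genes, and nothing is read from it. Ctgf, a matricellular growth regulator, was at 14.1, 19.6 and 12.6 CPM with DMSO and 6.98, 8.09 and 5.997 CPM with GSK126, with no overlap. It fell by 1.14 on the log2 scale (SE 0.20, edgeR adjusted p = 0.0137), and the call ended without GSK126 replicate 1 (edgeR adjusted p = 0.0513). The smallest change over single omissions was -0.93, without DMSO replicate 2, where the call held. Sparcl1, the closest relative of Sparc in the list, rose while Sparc fell (log2 fold change 0.31, SE 0.05; edgeR, adjusted p = 0.0145). Its call ended without DMSO replicate 1 or 2 or GSK126 replicate 1 (highest edgeR adjusted p = 0.0578). Lama5, the laminin chain that BCAM binds, rose by 0.40 (SE 0.07) and the perlecan gene Hspg2 by 0.32 (SE 0.06) on the log2 scale. The Lama5 call ended without GSK126 replicate 1 or 2 and that of Hspg2 without DMSO replicate 1 or 3 or GSK126 replicate 2, the highest edgeR adjusted p being 0.0625 and 0.0748. Lama4, the laminin chain bound by MCAM, was at 103.6, 103.1 and 104 CPM with DMSO and 91.2, 94.3 and 97.3 CPM with GSK126, a difference that was not called (log2 fold change -0.14, SE 0.05; edgeR, adjusted p = 0.111). Thbs3 had a log2 fold change of -0.38 (SE 0.10) and is uncertain, because it shares 318 bp of exons with Mtx1, which had more reads, and its call ended with each of the 6 libraries left out (highest edgeR adjusted p = 0.145).

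Tetraspanins, syndecans and genes of hyaluronan, the ligand of CD44, had 18 tested members. Of these, Hmmr and Ezr rose, Sdc1 fell and 15 were not called (median log2 fold change 0.00083). The called share was 16.7%, beside 11.1% over all tested genes, and nothing is read from it. Hmmr, a hyaluronan-binding protein of the mitotic spindle, had a log2 fold change of 0.25 (SE 0.05) and Ezr, the ezrin gene that links CD44 to actin, one of 0.27 (SE 0.05). Sdc1, a heparan sulfate proteoglycan, had one of -0.36 (SE 0.08). The Ezr call ended without DMSO replicate 1, 2 or 3, that of Hmmr also without GSK126 replicate 2, and that of Sdc1 with each of the 6 libraries left out, the highest edgeR adjusted p being 0.0585, 0.106 and 0.110.

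Sheddases, matrix proteases, their inhibitors and the plasminogen activation genes moved both ways. Of 17 tested, 1 rose, 4 fell and 12 were not called (median log2 fold change 0.04). The called share was 29.4%, beside 11.1% over all tested genes, and nothing is read from it. The called genes were a pair of sheddases in opposite directions (Adam10 higher, Adam9 lower), the inhibitors Timp2 and Timp3 and the receptor Plaur. Timp3, a metalloprotease inhibitor bound to the matrix, fell from 64.6 ± 5.19 to 47.5 ± 1.51 CPM (SD, n = 3), a log2 change of -0.44 (SE 0.07; edgeR, adjusted p = 0.0126) and kept its call with any library left out. Adam9, a membrane metalloprotease, went from 352, 372 and 268 CPM to 180, 210 and 220 CPM (log2 fold change -0.70, SE 0.13; edgeR, adjusted p = 0.0172), but lost the call without DMSO replicate 1 or 2 or GSK126 replicate 1 (highest edgeR adjusted p = 0.0693). Plaur, the urokinase receptor, had a log2 fold change of -0.73 (SE 0.14) and Timp2 one of -0.21 (SE 0.04). Adam10, the main sheddase of N-cadherin, L1CAM and CD44, rose by 0.31 (SE 0.07) on the log2 scale. The Plaur call ended without DMSO replicate 2 or 3 or GSK126 replicate 2, that of Adam10 without any DMSO library or GSK126 replicate 2, and that of Timp2 without any library but GSK126 replicate 3, the highest edgeR adjusted p being 0.0756, 0.107 and 0.0707.

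Focal adhesion genes, which tie integrins to actin, had 2 lower and 0 higher calls among 17 tested by edgeR, with 5 lower and 0 higher at an unadjusted p under 0.05 (median log2 fold change -0.08). The called share of 11.8% is near the 11.1% of all tested genes, and 27.5% of all tested genes had an unadjusted p under 0.05 in either direction. DESeq2 called 3 lower and limma-voom 2 lower. Zyx, the zyxin gene, was at 82.3, 94.2 and 94.5 CPM with DMSO and 50.3, 53.4 and 53.8 CPM with GSK126. It fell by 0.78 on the log2 scale (SE 0.07; edgeR, adjusted p = 0.00144), and the call held with any 1 library left out. Tln1, the talin gene that activates integrins, had a log2 fold change of -0.20 (SE 0.04), and its call ended without any library but GSK126 replicate 3 (highest edgeR adjusted p = 0.0866). Zyx and Tln1 share exons with Epha1 and Creb3, which had 5.59% and 5.52% as many reads.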

How the data were processed

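RNA sequencing of 6 B16F10 libraries was analysed from the deposited tables. Per the submitters' processing notes, CASAVA 1.8 and HISAT2 were used with GRCm38.p4 (mm10); for the counting tool, its strand setting and the annotation, nothing is stated. Raw counts per gene and FPKM values are as the authors deposited them. The deposited FPKM were the counts divided by library total and a length per gene (ratio between libraries of at most 1.000009 over 10025 genes with at least 100 reads), and served for levels only.

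Counts were fitted in R 4.3.3 with edgeR 4.0.16 (filterByExpr, TMM, glmQLFit and glmQLFTest, group as the only term), with Benjamini-Hochberg adjustment over 13601 genes at a threshold of 0.05. Standard errors came from the F statistic, and 95% intervals are not adjusted. The code was tested on simulated data. Alternatives were RLE factors, no TMM factor, 2 other filters, DESeq2 1.42.0, limma-voom (limma 3.58.1), a replicate block and leaving out each library. Pairs of replicates differed by 7.12 to 13.3 times counting noise (chi-square over degrees of freedom), so each was counted as its own library; this does not show separate cultures.

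The 10 genes and the lists were chosen with earlier results of these data known. Named partners were up to 3 called genes per list with the largest change (the most abundant tested gene if none was called), plus the 3 nearest profiles of Mcam and Spp1, 34 genes with the 10. Another 12 were named after their values were seen: the other called partners, Itgav, Itga4, Lama4 and Ctnnb1. Exon overlaps and transcript numbers are from GENCODE M21. Sequences are from RefSeq. Intervals cover the spread of these libraries only.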

Additional observations from a re-analysis of the deposited data

How the results depend on the processing

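Over 13 alternatives, 475 of 598 log2 fold changes of the 46 named genes kept their direction and side of the threshold, 118 lost the threshold, 3 gained it (Itga4 under DESeq2 and without GSK126 replicate 3, Ctnnb1 without GSK126 replicate 1) and 2 turned: Fn1 without DMSO replicate 3 (-0.0051, against up to 0.16 over single omissions) and Itgav without GSK126 replicate 2 (-0.30, against up to 0.97). Mcam, Spp1 and Sparc passed in each. Leaving out 1 library gave 529 to 1243 called genes in place of 1503. It gave 3 to 5 of the 10 adhesion genes in place of 5, 2 to 3 immunoglobulin-type genes in place of 5, 1 to 2 cadherins and catenins in place of 1, and 2 to 5 integrins in place of 5. For matricellular genes it gave 1 to 4 in place of 5, for tetraspanins, syndecans and hyaluronan genes 0 to 3 in place of 3 (0 without DMSO replicate 1, 2 or 3, where 5, 6 and 5 had an unadjusted p under 0.05), for proteases and inhibitors 1 to 5 in place of 5, and for focal adhesion genes 1 to 2 in place of 2. Fewer libraries leave fewer degrees of freedom; beyond that, the cause was not tested. With no filter beyond 1 read, 899 genes, 3 integrins and 1 gene of the hyaluronan list were called, where more genes enter the adjustment. With the replicate number as a block, edgeR called 408 genes, 3 of the 10 (Mcam, Spp1 and Sparc), 1 immunoglobulin-type gene, 2 integrins, 1 matricellular gene, 0 of the hyaluronan list (7 at an unadjusted p under 0.05), 1 protease or inhibitor and 1 focal adhesion gene. Nectin2, called with any 1 library left out, was not called with the block (adjusted p = 0.0578). No label says whether same-numbered libraries were handled together. Their deviations from the group means correlated at 0.0665, 0.0210 and -0.0420 over 10973 genes. Those of differently numbered libraries correlated at -0.102 to 0.0794. With 3 libraries per group, these values cannot decide whether the libraries were paired. Spp1 under DMSO, at 83 to 104 reads, has the least depth of the 10 genes.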

Other observations

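Itgav, singled out after its values were seen, differed more between replicates than between groups. It encodes the alpha chain shared by several receptors for osteopontin and fibronectin. Its level was 92.9, 96.6 and 269 CPM in DMSO replicates 1 to 3 and 101.8, 309.7 and 147.5 CPM in GSK126 replicates 1 to 3. DMSO replicate 3 and GSK126 replicate 2 were thus the high libraries, 1 in each group, and the log2 fold change was 0.29 (SE 0.52; edgeR, adjusted p = 0.763). The gene that shares exons with it, Gm13684, had 0.00695% as many reads. Of the 10 adhesion genes, Spp1 was also highest within its group in these libraries, and no other was highest in both. Its differences were small, at 7.71 CPM against 7.13 and 5.90 in the other DMSO libraries and 26.2 CPM against 23.9 and 23.9 in the other GSK126 libraries. These libraries were picked by Itgav, and with 3 libraries per group such a match can arise by chance, so nothing is read from it.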
